A study of Phanerodontia chrysosporium with 8 samples.

Results

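Of 12746 gene models with a deposited level in Phanerodontia chrysosporium RP-78, 147 had a mean of at least 4 RPKM in vegetative mycelium and were at least 8-fold lower in young fruiting bodies, with a median level in fruiting bodies that differed from young fruiting bodies by under 2-fold. P. chrysosporium is a white-rot fungus, and the strain was grown as agar cultures. The 3 stages, given as 8 libraries of polyadenylated RNA, were vegetative mycelium (3 libraries), young fruiting body (2 libraries, collected as dense initials with a sharp edge) and fruiting body (3 libraries, collected when spores began to fall). Per the labels' protocols, cultures on cellophane over a glucose, malt, peptone and yeast agar were kept dark at 37 °C for 7 days and then fruited at 25 °C in a moist chamber under dim light. Every library came from the same strain, with no genetic change named. Whether mycelium was collected before or after the move is not given. If it was collected before, the stage and the growth conditions (temperature, light, moisture and age of the culture) cannot be told apart in any comparison with mycelium. Nothing in the labels says that each library had a culture of its own, so the spread given here is that between these samples, and it may be technical.

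Vegetative mycelium is the web of feeding hyphae of a fungus. In white-rot fungi it secretes enzymes that open wood and other plant matter, among them the peroxidases for which this species is best known, and takes up the sugars they release. A fruiting body is built of hyphae that leave this feeding growth, pack together and form a spore-bearing surface, so genes used in feeding growth can differ in level from genes used in fruiting tissue. The model IDs in the files are not paired with gene names or products, and the 147 models are therefore described by ID, length and level, without roles.

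The members were chosen on the deposited log2 RPKM, which are reads per kilobase of model scaled to the depth of the library, on a log2 scale. The rule asked for a mean over the mycelium libraries of at least 2 (4 RPKM), a mean over the young fruiting bodies at least 3 log2 units below it, a median over the fruiting bodies within 1 log2 unit of the young fruiting bodies, and a length above 537 bp. Of 9583 models past the length and mycelial limits, 203 met the fall and 147 of those met the limit on the fruiting body median. Levels in all 3 stages thus chose the members, and their differences between stages are given as a description. At the limit of the fall, model 2897035 lay inside at -3.0025 and model 2937573 outside at -2.9973. At the limit of steadiness, model 1954716 lay inside with a difference of 0.978 and model 3004224 outside with 1.01. The shortest member, model 2899761, had 558 bp, and model 2989103 met every other limit but had 537 bp. The lowest mycelial mean of a member was 2.78 log2 RPKM (model 1483007), and the next model below the limit was 2107638 at 1.38.

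Gene models were covered by 16144543 to 35837246 uniquely mapped reads per library. One library, fruiting body replicate 3, differed from the rest of its stage in these models. Its member levels correlated at r = 0.411 and 0.299 with fruiting body replicates 1 and 2, which correlated with each other at 0.920, and at 0.700 to 0.805 with the 3 mycelium libraries. These are correlations across 147 models, which share their length and sequence between libraries and are not independent replicates. The rule also held the fruiting body median near young fruiting bodies. In the 128 members where replicate 3 was highest, this bounded the higher of replicates 1 and 2 and left replicate 3 free above. The choice of members thus favours such a contrast of correlations, and nothing is read from its size. Because replicate 3 stood apart in these models, each result on fruiting bodies is given with and without it. Fruiting body replicate 3 shared its flowcell with fruiting body replicate 1 alone, and the other 6 libraries shared another.

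In mycelium most members lay in the upper part of the range of all models. The rule used these levels both in the mycelial minimum and in the fall. They are given as a description, and nothing is read from their standing among all models. Their median level was 7.49, 6.96 and 7.04 log2 RPKM in the 3 mycelium libraries, or 179.9, 124 and 132 RPKM. This put the median member at the 94.0, 89.95 and 91.5 percentile of all models in those libraries. At least 100 RPKM was reached in every mycelium library by 73 members, or 49.7%, against 9.49% of all models, and at least 1000 RPKM by 9, or 6.12%, against 0.345%. The members were not all abundant: 143 reached 10 RPKM in every mycelium library, and the lowest in mean level, model 1483007, stood at 5.39, 4.82 and 12.4 RPKM.

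In young fruiting bodies the same models lay in the lower part of the range. Their medians were 2.50 and 2.78 log2 RPKM in replicates 1 and 2, or 5.64 and 6.87 RPKM, at the 23.9 and 26.8 percentile of all models. The fall had a median of -3.89 log2 units and ran to -11.21. It was under 4 units in 78 members, 4 to under 5 in 30, 5 to under 6 in 16, 6 to under 8 in 16 and at least 8 in 7. Few members fell to trace levels. In both young libraries 140 of 147 had 1 RPKM or more (95.2%, against 94.1% of all models). Below 1 RPKM in both were 4 (2.72%, against 3.88% of all models), namely models 2967475, 2983435, 1483007 and 3091657. These shares are near those of all models, so detection at this level is not particular to the members. The words "shut down" would thus overstate the level of most members, which were lower but detected. In bulk RNA, fewer cells that hold a transcript and less of it per cell cannot be told apart.

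**Figure D1:**
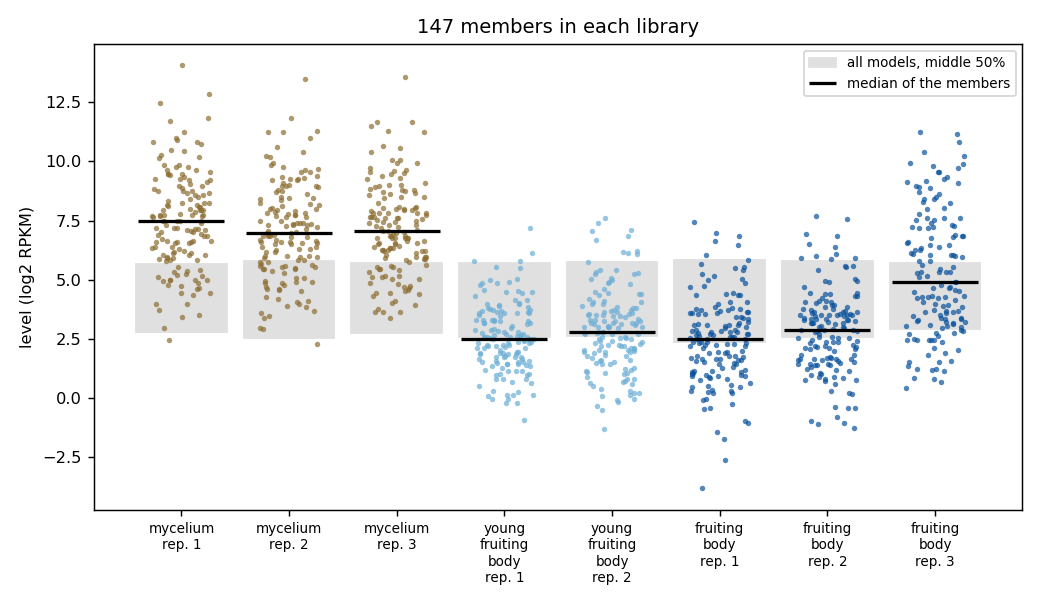
Level (log2 RPKM) of each of the 147 members in each of the 8 libraries. Points are members, black lines their medians, and grey boxes the middle 50% of all models. The medians lie at 6.96 to 7.49 in mycelium, at 2.50 and 2.78 in young fruiting bodies, at 2.47 and 2.88 in fruiting body replicates 1 and 2, and at 4.92 in fruiting body replicate 3.

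Model 2976036 (863 bp) had the highest mycelial level and the largest fall of the members. It stood at 17326, 11491 and 12188 RPKM in mycelium, 3.57 and 8.96 RPKM in young fruiting bodies, and 2.94, 2.57 and 2444 RPKM in fruiting bodies, each stage listed from replicate 1 on. Young fruiting bodies averaged 6.27 ± 3.81 RPKM (SD, n = 2) and mycelium 13668 ± 3187 RPKM (SD, n = 3), a difference of -11.21 in mean log2 RPKM. The mycelium and young fruiting body libraries were far apart, and fruiting body replicate 3 lay between them, at 17.9% of the mycelial mean.

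Model 2965334 (1383 bp) followed in the size of its fall. Its levels were 3677, 2502 and 3287 RPKM in mycelium, 3.84 and 3.46 RPKM in young fruiting bodies, and 2.41, 4.27 and 2328 RPKM in fruiting bodies. Both young libraries and fruiting body replicates 1 and 2 held under 5 RPKM, while replicate 3 came close to the lowest mycelium library. Model 2967475 (1092 bp) read 717, 429 and 488 RPKM in mycelium, 0.852 and 0.932 RPKM in young fruiting bodies, and 0.364, 0.474 and 359 RPKM in fruiting bodies.

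Models 2905821 and 3030566 fell about as far in young fruiting bodies, by 9.19 and 8.96 log2 units, but stayed further below mycelium in fruiting body replicate 3. Model 2905821 (873 bp) stood at 2031, 1198 and 1534 RPKM in mycelium, 2.61 and 2.70 RPKM in young fruiting bodies, and 3.82, 2.82 and 339 RPKM in fruiting bodies. Model 3030566 (1149 bp) stood at 3353, 2415 and 2879 RPKM in mycelium, 5.002 and 6.54 RPKM in young fruiting bodies, and 4.82, 4.45 and 338 RPKM in fruiting bodies. In each case replicate 3 lay between the mycelium and the other fruiting libraries, at 21.3% and 11.7% of the mycelial mean.

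The other members of highest mycelial level differed in how low they went. Model 1416977 (1180 bp) had 5686, 2428 and 2510 RPKM in mycelium, 12.5 and 16.7 RPKM in young fruiting bodies, and 20.1, 10.4 and 982 RPKM in fruiting bodies. Model 1698958 (613 bp) had 1901, 1549 and 3305 RPKM in mycelium, 10.9 and 16.8 RPKM in young fruiting bodies, and 8.24, 11.3 and 39.0 RPKM in fruiting bodies. Model 1698958 was low in every fruiting library, replicate 3 included, at 1.73% of its mycelial mean there.

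Model 2908524 (1047 bp) was the one member with at least 100 RPKM in both young fruiting bodies. It stood at 1713, 2064 and 1592 RPKM in mycelium, 146 and 138 RPKM in young fruiting bodies, and 171, 191 and 182 RPKM in fruiting bodies. Its 5 fruiting libraries lay within a narrow band, and fruiting body replicate 3 differed from the mean of replicates 1 and 2 by 0.0047 log2 units. It was named for this level after its values were seen.

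Replicates of a stage did not always agree on the level of a member. Mycelium replicate 1 was the highest of the 3 in 90 members (61.2%, against 42.7% of all models) and mycelium replicate 2 the lowest in 80 (54.4%, against 41.0%). The range over the mycelium libraries had a median of 0.87 log2 units among members and 0.49 among all models. The rule used the levels in these libraries, so nothing is read from the comparisons with all models. The mycelial range was widest in model 3042911 (1185 bp), at 97.2, 28.9 and 225 RPKM in mycelium, where young fruiting bodies held 5.59 and 5.68 RPKM and fruiting bodies 2.45, 4.67 and 9.50 RPKM. Models 2581302 and 3007073 followed with mycelial ranges of 2.86 and 2.53 log2 units. Model 3007073 (930 bp) read 1238, 520 and 214 RPKM in mycelium, 22.6 and 31.4 RPKM in young fruiting bodies, and 29.2, 25.7 and 185 RPKM in fruiting bodies, so replicate 3 lay just below its lowest mycelium library.

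The young fruiting bodies differed by at least 2 log2 units in 6 members, all higher in replicate 2 (4.08%, against 0.588% of all models). These were models 964, 123909, 10833, 3007100, 1928582 and 2990369, and they were picked out after their values were seen. Model 123909 (954 bp) had 29.8 and 167 RPKM in young fruiting bodies, with 7457, 3623 and 2416 RPKM in mycelium and 127, 115 and 1789 RPKM in fruiting bodies. Model 1928582 (830 bp) had 1.52 and 20.9 RPKM in young fruiting bodies, with 141, 76.3 and 48.9 RPKM in mycelium and 3.36, 2.07 and 5.59 RPKM in fruiting bodies. In 5 of the 6, all but model 1928582, fruiting body replicate 3 exceeded the mean of replicates 1 and 2 by at least 2 log2 units. Of all 147 members, 74 did (50.3%, against 4.5% of all models).

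**Figure D2:**
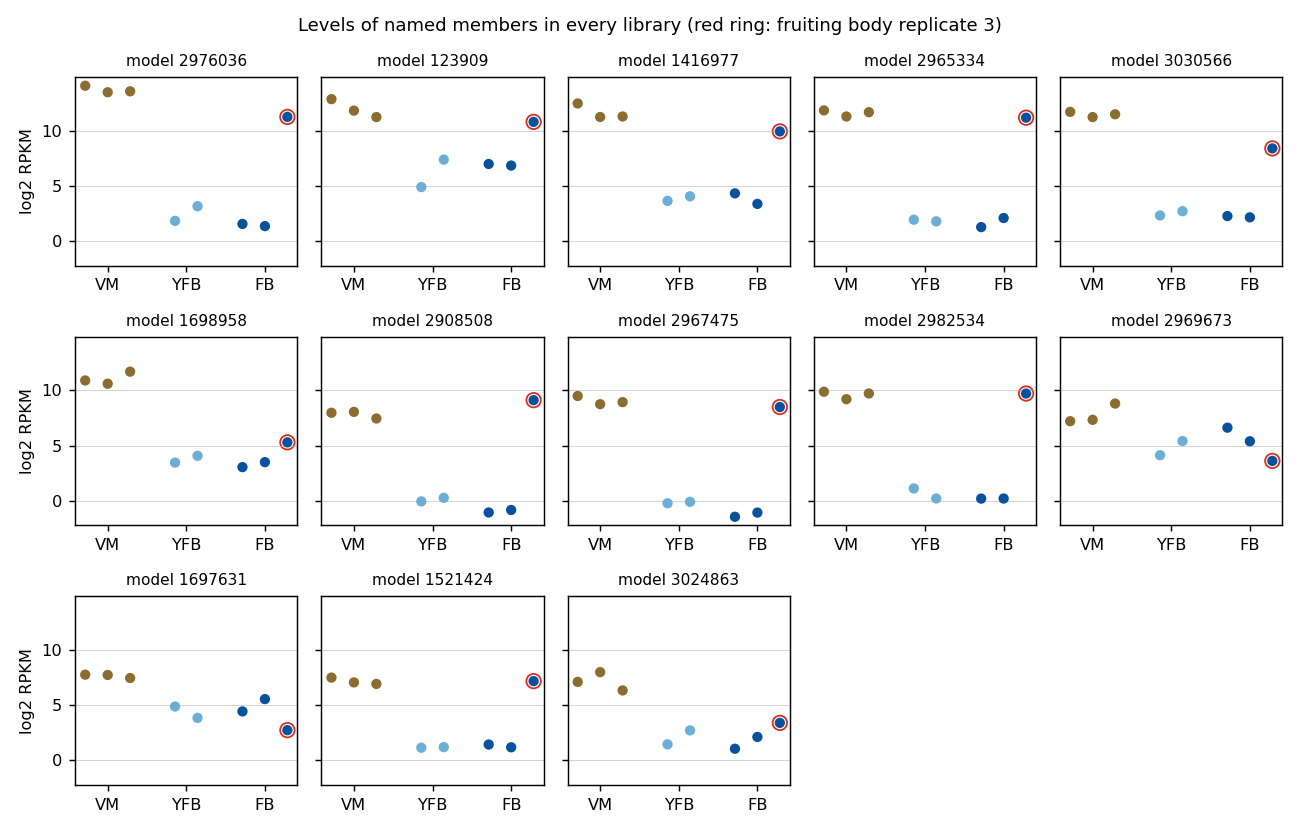
Levels (log2 RPKM) of 13 named members in every library, with vegetative mycelium (VM), young fruiting body (YFB) and fruiting body (FB) from left to right; each point is a library, and a red ring marks fruiting body replicate 3. In model 2908508 the ringed point lies above every mycelium library, and in models 2969673 and 1697631 it is the lowest of the fruiting libraries.

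Fruiting body replicates 1 and 2 held the members near the level of the young fruiting bodies. The mean of both minus the young fruiting body mean had a median of -0.10 log2 units, with the middle 80% of members between -0.79 and 0.68. Over all models the median was -0.0047, with the middle 80% between -0.65 and 0.48. The rule bounded the fruiting body median of the members near young fruiting bodies, so nothing is read from this nearness. Replicates 1 and 2 had medians of 2.47 and 2.88 log2 RPKM, at the 26.2 and 28.5 percentile of all models. In these libraries and both young fruiting bodies together, all 147 members lay below every mycelium library, where 25.6% of all models did. For the young fruiting bodies alone the count was also 147, where 30.2% of all models did. The rule used these levels, and nothing is read from the counts. The lowest single value was that of model 2022711, at 0.0696 RPKM (1 unique read) in fruiting body replicate 1. It compares with 0.738 and 2.82 RPKM in replicates 2 and 3, 1.17 and 1.03 RPKM in young fruiting bodies, and 11.3, 7.52 and 10.5 RPKM in mycelium. No member had 0 unique reads in any library, and 8 had under 10 in at least 1 library.

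In fruiting body replicate 3 many members stood far higher. The median over a stage passes over its highest library, and replicate 3 was the middle value in 7 members and the highest of its stage in 128, so the rule set no upper limit to its level in those 128. The share of 87.1% compares with 44.8% of all models. Replicate 3 was the lowest of its stage in 12 members (8.16%, against 41.4% of all models). It was thus an extreme of its stage in most models, and standing apart is not particular to the members. The median of replicate 3 over members was 4.92 log2 RPKM, at the 59.96 percentile of all models. Replicate 3 minus the mean of replicates 1 and 2 had a median of 2.02 log2 units over members and 0.03 over all models. It was at least 1 in 112 members (76.2%, against 16.6% of all models), at least 4 in 38 (25.9%, against 0.471%) and at least 8 in 6 (4.08%, against 0.0628%). With a single library on one side there is no replicate check of these differences.

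Models with the opposite course moved the other way in this library. For 236 models of more than 537 bp that stood at least 3 log2 units above mycelium in young fruiting bodies, with a young fruiting body mean of at least 2 and a fruiting body median within 1 of it, replicate 3 minus the mean of replicates 1 and 2 had a median of -1.24, and 5 were highest in replicate 3. The 28 models that met the members' rule at 537 bp or less had a median of 1.39, and the 46 longer models whose fruiting body median was at least 1 above young fruiting bodies had 0.84. These medians were not tested against each other. In the members and in the models with the opposite course, the median displacement of replicate 3 was thus toward mycelium. Both sets were chosen to lie far from mycelium in young fruiting bodies, with a fruiting body median that could pass over replicate 3. Such a choice can favour this direction, and nothing is read from it. How much mycelium or other material the library held was not measured, and its part in the members' levels was not tested. Fruiting body replicate 1, the other library of that flowcell, was the lowest of its stage in 98 members (66.7%, against 35.3% of all models). The part of the flowcell was not tested.

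The rise in replicate 3 differed widely between members. Relative to the mean mycelial RPKM, it ranged from 0.802% to 326% with a median of 24.7%. Replicate 3 was at or above the lowest mycelium library in 30 members and above every mycelium library in 11. Neither number is given here for all models, so nothing is read from them. Replicate 3 minus the mycelial mean had a median of -1.95 log2 units over members and 0.10 over all models. Across members the level of replicate 3 correlated at r = 0.764 with the mycelial mean and at 0.364 with the mean of fruiting body replicates 1 and 2, over 147 models that share their length and sequence between libraries. The rule left replicate 3 free above in most members, and nothing is read from this contrast.

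**Figure D3:**
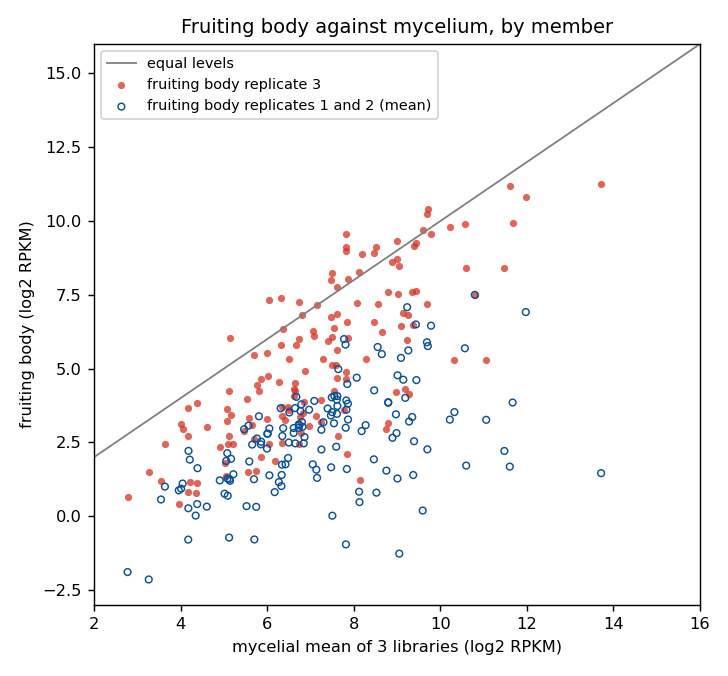
Level in fruiting bodies (log2 RPKM) against the mycelial mean (log2 RPKM) for the 147 members, with fruiting body replicate 3 as filled red points, the mean of replicates 1 and 2 as open blue circles, and a grey line where levels are equal. All open circles lie below the line, and filled points reach or cross it for part of the members.

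Divided after the data were seen by where replicate 3 stood, 45 members were within 1 log2 unit of their mycelial mean or above it, 47 were no more than 1 log2 unit above the higher of fruiting body replicates 1 and 2, and 55 lay between. Shares of all models are not given for these groups, so nothing is read from their size. The 45 near mycelium had a median of 8.01 log2 RPKM in replicate 3, against 7.62 for their mycelial mean and 2.66 for the mean of replicates 1 and 2. Their fall in young fruiting bodies had a median of -4.64, against -4.02 in the 55 and -3.63 in the 47. The division used the mycelial mean, which also enters the fall, and the rule used the fall. Nothing is read from these differences.

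Model 2908508 (705 bp) showed the widest gap of replicate 3 to its stage, 10.06 log2 units. It stood at 250.1, 264 and 174 RPKM in mycelium, 0.957 and 1.20 RPKM in young fruiting bodies, and 0.478, 0.558 and 552 RPKM in fruiting bodies. Replicate 3 lay above every mycelium library, and the other 4 fruiting libraries lay at 1.20 RPKM or less. Fruiting body replicates 1 and 2 held 5 and 9 unique reads of this model, so the size of the gap is imprecise. Model 2982534 (886 bp), with a gap of 9.52, stood at 937, 586 and 839 RPKM in mycelium, 2.16 and 1.15 RPKM in young fruiting bodies, and 1.14, 1.15 and 837 RPKM in fruiting bodies.

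Model 2985945 (1709 bp) reached the highest share of the mycelial mean, 326%, and was named after its values were seen. It had 269, 160 and 266 RPKM in mycelium, 6.27 and 7.92 RPKM in young fruiting bodies, and 6.32, 10.1 and 754 RPKM in fruiting bodies. Model 1521424 (1037 bp), whose mycelial mean is the median of the members, had 180, 133 and 121 RPKM in mycelium, 2.20 and 2.28 RPKM in young fruiting bodies, and 2.69, 2.26 and 144 RPKM in fruiting bodies. Here replicate 3 fell inside the mycelial range. Model 3024863 (906 bp), next to that median, had 137, 253 and 80.2 RPKM in mycelium, 2.72 and 6.53 RPKM in young fruiting bodies, and 2.06, 4.32 and 10.5 RPKM in fruiting bodies, where replicate 3 was at 6.67% of the mycelial mean. Similar mycelial levels thus went with different levels in replicate 3.

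At the other end, 6 members were at least 1 log2 unit lower in replicate 3 than in the mean of replicates 1 and 2 (4.08%, against 9.73% of all models). The lowest was model 2969673 (1332 bp), with 147, 161 and 446 RPKM in mycelium, 17.4 and 42.3 RPKM in young fruiting bodies, and 98.1, 41.8 and 12.2 RPKM in fruiting bodies. Model 1697631 (1824 bp) followed, with 216, 212 and 175 RPKM in mycelium, 29.2 and 14.3 RPKM in young fruiting bodies, and 21.5, 46.5 and 6.62 RPKM in fruiting bodies. In both, replicate 3 was the lowest of all 8 libraries. Model 2983435 (1564 bp) had the lowest share of its mycelial mean in replicate 3, 0.802%. It had 283, 396 and 198 RPKM in mycelium, 0.968 and 0.872 RPKM in young fruiting bodies, and 1.15, 1.68 and 2.34 RPKM in fruiting bodies, and was named after its values were seen.

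**Figure D4:**
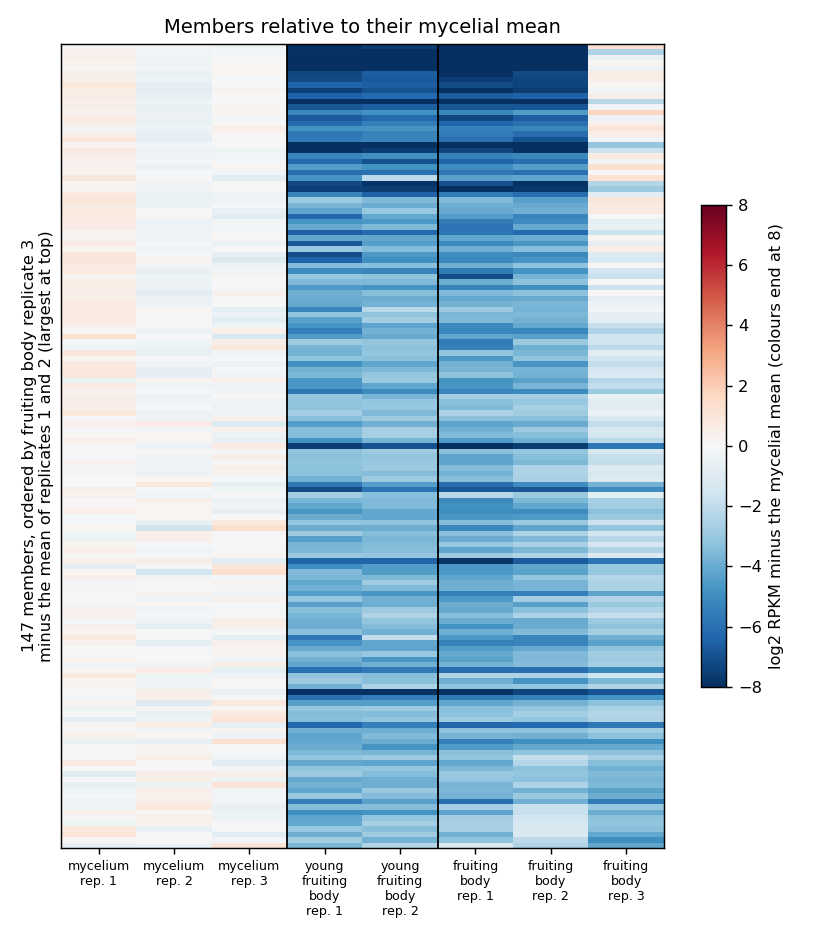
Level of each of the 147 members (rows) in each library (columns) as log2 RPKM minus its mycelial mean, with rows ordered by fruiting body replicate 3 minus the mean of replicates 1 and 2. Young fruiting bodies and fruiting body replicates 1 and 2 are below the mycelial mean (dark to pale blue) throughout, whereas replicate 3 runs from mostly pale or light red at the top, where the difference is up to 10.06, to blue at the bottom.

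The members together took a sizeable part of the mycelial reads. Their share of unique reads was 9.51, 6.20 and 7.22% in mycelium. It was 0.207 and 0.339% in young fruiting bodies. Fruiting body replicates 1, 2 and 3 gave 0.227, 0.307 and 3.79%. Young fruiting bodies averaged 0.273 ± 0.0930% (SD, n = 2) and mycelium 7.64 ± 1.70% (SD, n = 3). Fruiting bodies averaged 1.44 ± 2.04% (SD, n = 3), or 0.267 ± 0.0564% without replicate 3 (SD, n = 2). The libraries of young fruiting bodies and fruiting body replicates 1 and 2 lay within one range, and replicate 3 lay between them and mycelium. The rule chose the members on these levels and left replicate 3 free above in most, so nothing is read from this order.

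These shares rested in part on few models. The 10 members with most mycelial reads held 46.9 to 52.8% of the members' reads in mycelium, 23.9 and 23.8% in the young libraries, and 25.2, 25.9 and 38.9% in the 3 fruiting bodies. Model 2976036 alone held 14.9 to 15.2% of the members' reads in mycelium, at most 0.238% in young fruiting bodies and fruiting body replicates 1 and 2, and 6.35% in replicate 3. Without those 10, the other 137 members took 3.15 to 4.49% of unique reads in mycelium, 0.158 and 0.258% in young fruiting bodies, and 0.170, 0.227 and 2.32% in fruiting bodies.

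**Figure D5:**
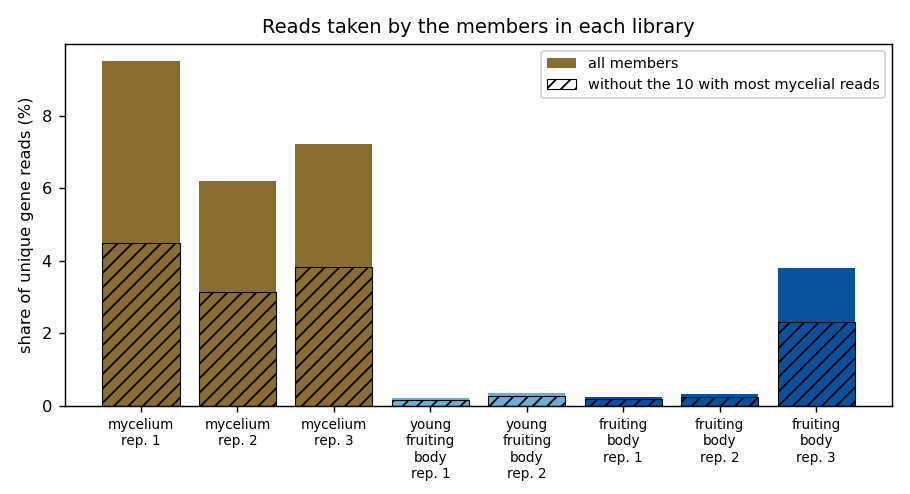
Share of uniquely mapped gene reads (%) taken by the members in each library; the full bar is all 147 members and the hatched part the members without the 10 that held most mycelial reads. Mycelium lies at 6.20 to 9.51%, fruiting body replicate 3 at 3.79%, and the other fruiting libraries at 0.207 to 0.339%.

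All 147 members passed the filter on low counts and entered an edgeR quasi-likelihood fit of 12510 models in all 8 libraries, with calls at a Benjamini-Hochberg adjusted p below 0.05. In young fruiting bodies against mycelium, 119 members were called lower and 0 higher, where 10.9% of all models tested were called lower. In fruiting bodies against mycelium, 98 were called lower and 0 higher, where 13.4% of all models were called lower. The rule used the levels in both comparisons, which share the mycelium libraries, so nothing is read from these counts. The median fitted log2 fold change over members was -4.02 for young fruiting bodies and -2.88 for fruiting bodies, and over all models tested -0.0046 and 0.05.

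The calls depended on single libraries. Without fruiting body replicate 3, 146 of 147 members were called lower in fruiting bodies than in mycelium (edgeR), where 24.7% of all models were called lower, and the median log2 fold change over members was -4.15. The member then not called was model 3024081, with 3.37, 20.9 and 2.83 RPKM in fruiting bodies, against 96.9, 43.1 and 25.6 RPKM in mycelium. Fruiting body replicate 3 also enters the spread shared by all stages, and the part of that spread in the calls was not tested. Without this library, 146 members were called lower in young fruiting bodies than in mycelium, where 20.0% of all models were. Without young fruiting body replicate 1, that number was 49, where 2.69% of all models were called lower. Without young fruiting body replicate 2, it was 66, where 4.1% of all models were. The members' counts thus moved in the same direction as those of all models. The call in fruiting bodies appeared only without replicate 3 in 49 members. Among all models, the share called lower was 13.4% with replicate 3 and 24.7% without it. How many of all models made the same switch was not counted, so nothing is read from the 49. One of them is model 2908508, with a fitted log2 fold change of -8.87 without replicate 3 and -0.32 with it.

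The calls in fruiting bodies followed the level in replicate 3. With all libraries, 47 of the 47 members near replicates 1 and 2 were called lower in fruiting bodies than in mycelium, 48 of the 55 between, and 3 of the 45 near mycelium (models 2973904, 139141 and 2914645). Since the division was made on those values, this describes the fit and is not a separate result. Model 2985945 was the one member with a fitted log2 fold change above 0 in fruiting bodies, 0.15, against -4.82 without replicate 3. Model 1928582 was the one member called lower in fruiting bodies but not in young fruiting bodies.

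Between fruiting bodies and young fruiting bodies, 0 members were called in either direction (edgeR), where 0.0% of all models were, and the rule itself bounded the median of this difference. At an unadjusted p below 0.05 the numbers were 36 of 147 members and 987 of 12510 models tested (edgeR). The rule used these levels, and nothing is read from the numbers. At the adjusted limit, limma-voom also called 0 members, where 0.00799% of all models were called. Of the members, 131 had a positive fitted log2 fold change, with a median of 1.06, against -0.09 without replicate 3, where 0 members and 0.649% of all models were called. DESeq2 called 2 members higher in fruiting bodies, models 2965334 and 2982534, both among the widest gaps of replicate 3, where 1.88% of all models were called in either direction. The 2 of 147 members are a share near that of all models, and nothing is read from them. The 6 libraries of the shared flowcell alone, with replicate 2 as the sole fruiting body, gave 1, model 2990611, higher in fruiting bodies, where 0.509% of all models were called.

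The members' lengths ran from 558 to 3270 bp with a median of 1180 bp, against 1373 bp for the 9583 models past the same length and mycelial limits. The 3 longest, models 3030838 (3270 bp), 2899157 (3177 bp) and 2977720 (2976 bp), fell by 3.82, 3.30 and 3.49 log2 units in young fruiting bodies. Model 3030838 stood at 98.3, 96.5 and 75.8 RPKM in mycelium, 5.10 and 7.83 RPKM in young fruiting bodies, and 3.10, 4.99 and 13.1 RPKM in fruiting bodies, so all 5 fruiting libraries lay below all mycelium libraries. A length that is a multiple of 3 was found in 98 members (66.7%, against 62.8% of all models).

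Most members had reads of their own. No read of 125 members was shared with another place, and in 3 members over 10% of total reads were not unique: 87.8% in model 2913012, 82.6% in model 3091657 and 36.0% in model 2990115. Their RPKM come from total reads and cannot be assigned to these models rather than to near-identical copies. The kit does not mark strand, so reads of a model and of an overlapping model on the other strand cannot be told apart.

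All 5 fruiting libraries lay below all 3 mycelium libraries in 117 of 147 members (79.6%), against 16.8% of all models. For the 3 fruiting bodies alone the number was also 117, where 20.7% of all models did, and without fruiting body replicate 3 all 147 did. The rule used these levels, and nothing is read from the counts. In the other 30 members fruiting body replicate 3, the library that the median mostly passed over, was at or above the lowest mycelium library, so the words "throughout fruiting" do not describe that library for them.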

How the data were processed

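Polyadenylated RNA of 8 libraries (3 mycelium, 2 young fruiting body, 3 fruiting body) was grouped by title. Each sample's deposited file lists 13602 models with their length and, per the file headers, a count of unique and one of total gene reads. Their RPKM column is 0 throughout and was not used. The deposited matrix holds log2 values for 12746 models. They follow log2 RPKM of total reads up to 1 constant per library (largest deviation 0.00659 in 8756 models with at least 100 reads in each library). Tools named in the submitters' processing notes, without a role, are limma 3.18.13, edgeR 3.4.2 and R 3.0.2. Aligner settings and genome release are not given in the sources used here.

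The members, lists, named models and tests were chosen with earlier results of these data known. The rule for named models took, among members, the 6 highest mycelial means, 6 largest falls, 4 smallest falls (with the 4 nearest non-members), the 4 highest and 2 lowest differences of fruiting body replicate 3 from replicates 1 and 2, the 3 longest, the 3 widest mycelial ranges and the 2 nearest the median level; models outside this rule were named after their values were seen. Levels and differences use the deposited log2 values, with RPKM as 2 to their power.

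Unique reads were fitted in R 4.3.3 with edgeR 4.0.16 (filterByExpr, TMM, robust quasi-likelihood fit, stage as the only term, all libraries, Benjamini-Hochberg adjusted p over 12510 models), a fit checked on simulated data. Depth was 16144543 to 35837246 unique reads, and 3 reads, which a count of 0 allows, equal 0.0837 to 0.186 CPM (counting error only). Alternatives were upper-quartile factors, total reads, no filter, limma-voom (limma 3.58.1), DESeq2 1.42.0, the replicate number as a block, flowcell as a covariate, the shared flowcell alone, 2 stages alone, other rule limits and each library left out.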

Additional observations from a re-analysis of the deposited data

How the results depend on the processing

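Of 48 values under alternatives other than leaving out a library, 41 stayed within 1.5 times the reported count or within 1 SD of the reported share or median, and 0 reversed. Members called lower in fruiting bodies than in mycelium (98) became 58 with the flowcell as a covariate, where the fitted level rests on fruiting body replicate 2 and the share of all models called lower was 3.29%, against 13.4%. Members called between fruiting bodies and young fruiting bodies (0) became 2 with DESeq2 (1.88% of all models) and 1 on the shared flowcell (0.509%). The rule gave 383 members with a fall of at least 2 and 69 with a fall of at least 4, in place of 147. The mycelial share of 7.64% became 3.82% without the 10 members with most mycelial reads, which removes part of the sum. The 45 members near mycelium in fruiting body replicate 3 became 76 within 2 log2 units, a wider limit added after the data were seen. The cause of the shifts in calls was not tested.

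Leaving out 1 library at a time, members called lower ranged from 49 to 146 in young fruiting bodies and from 78 to 146 in fruiting bodies, where the shares of all models ranged from 2.69 to 20.0% and from 8.18 to 24.7%, and members called between the fruiting stages were 0 in every case. The rule gave 71 to 161 members; 71 and 88 were those without fruiting body replicates 1 and 2, where the median of the stage is drawn toward replicate 3, and 147 without replicate 3, of which 130 were shared with the members. A fruiting body mean in place of the median gave 98, of which 93 were shared. The members' share ranged from 6.71 to 8.37% in mycelium, 0.207 to 0.339% in young fruiting bodies and 0.267 to 2.05% in fruiting bodies. Members with all fruiting libraries below all mycelium libraries ranged from 117 to 147.

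The replicate numbers were not taken as pairs in the main fit. Deviations from the stage means correlated at -0.278 to 0.196 for same-numbered libraries and at -0.251 to 0.316 for different-numbered ones. Deviations from a mean of so few libraries are bound to each other, so this cannot decide whether the numbers pair the libraries. With the replicate block, 110 members were called lower in young fruiting bodies (7.91% of all models) and 105 in fruiting bodies (12.7%). Between the fruiting stages it was 0 (0 of all models). Few libraries per stage limit the precision, and fruiting body replicate 3 has no second library like it. Members with under 10 reads in a library (8) have imprecise low values.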
